A study of Caenorhabditis elegans with 9 samples.

Results

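Chromosome III of Caenorhabditis elegans was followed here as 14 consecutive segments, out of 104 into which the deposited genome table divides the nuclear and mitochondrial genome. The 14 were taken by their place in that table, data rows 33 to 46, and were numbered III-1 to III-14 along the chromosome. Of these, 13 are 1000000 bases long and the last, III-14, has 783801. Positions follow from these lengths. The build is not stated, and genes were placed by the WBcel235 annotation, all of whose genes end within the chromosomes so built. The sequenced small RNA came from whole adult hermaphrodites of 3 genotypes, with 3 libraries each, all from cultures kept at 25 °C and collected 24 h past the middle of the fourth larval stage. The genotypes were prg-1(Rnase-dead), prg-1(∆PAZ-domain) and Wild Type, called RNase-dead, PAZ-deletion and wild type below. Each pool held 20 to 30 animals. The sample titles call the animals hermaphrodites, while the growth text also calls them male. The labels give neither allele designations nor strains. Nothing in them says that the replicates are separate cultures, so a p-value here reflects only how far these libraries scatter, which may be technical. Small RNA counts per segment give no expression level for prg-1 itself, and the genotype labels could not be checked that way.

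PRG-1 is the Piwi Argonaute through which piRNAs act in the germ line of this worm. An Argonaute holds the 3′ end of its guide RNA in the PAZ domain and, where its nuclease is active, cuts the target RNA. piRNA targeting is known to recruit RNA-dependent RNA polymerases, which make secondary siRNAs with a 5′ triphosphate against the target transcript. Most piRNA genes of this species lie on chromosome IV. Other small RNAs, such as microRNAs, which repress messenger RNAs through short seed matches, and siRNAs, come from all chromosomes. The table counts all small RNAs of a segment together and does not separate these classes. In worm autosomes the central region is rich in conserved genes, while the arms recombine more and carry more repeats.

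The libraries held 1022428 to 3121968 genome-mapped reads, of which 198192 to 586558 fell on chromosome III. Every segment of chromosome III had at least 2626 reads in every library. At this depth the exact binomial interval (Clopper-Pearson, 95%) of a segment's share of the chromosome was at most ± 0.213 percentage points. The SD of the share between libraries exceeded the widest such half-width in all but 3 of 42 combinations of segment and genotype, which were III-4 in RNase-dead and III-1 and III-6 in wild type. Levels are given as RPM, reads per 1000000 genome-mapped reads, the total that the series' design text names for scaling piRNA reads. RPM is a relative measure, and the last segment of chromosome I, named I-16, which holds ribosomal RNA genes, took 2.27 ± 0.546% of the genome-mapped reads in RNase-dead, 4.65 ± 0.802% in PAZ-deletion and 10.1 ± 5.54% in wild type (SD, n = 3). Wild type replicate 2 also stood apart in that 5.10% of its reads fell on 1 segment of chromosome II, against 0.718 to 1.43% in the other 8 libraries. Whole animals were used, so fewer germ cells and less small RNA per cell cannot be told apart.

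One segment dominated the chromosome in every genotype. III-9, at bases 8000001 to 9000000, averaged 57213 ± 4284 RPM in RNase-dead, 97960 ± 18426 in PAZ-deletion and 53627 ± 6927 in wild type (SD, n = 3). By mean RPM over all libraries it ranked 1 among all 104 segments of the genome. Within genotypes it ranked 1 in RNase-dead, 1 in PAZ-deletion and 2 in wild type. It was 5.72 ± 0.492 times the median of the other 13 segments in RNase-dead, 15.1 ± 5.09 times in PAZ-deletion and 7.04 ± 0.419 times in wild type (SD, n = 3). The next in level was III-3, bases 2000001 to 3000000, at a mean of 17649 RPM over all libraries, followed by III-4, bases 3000001 to 4000000, at 10247 RPM. The lowest were III-12, at 4715 RPM, and III-2, at 4433 RPM. Per 1000000 bases, the shorter III-14 averaged 11969 RPM, above III-4.

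The 3 leading segments each hold 3 or 4 microRNA genes, as do III-7, III-8 and III-12. Ensembl release 115 lists 2640 protein-coding genes, 27 microRNA genes, 78 piRNA genes and no ribosomal RNA gene on chromosome III. III-9 holds 238 protein-coding genes, within the range of 134 to 251 over the 14 segments, and 5 piRNA genes, where the range was 0 to 12. Its 3 microRNA genes lie close together on the minus strand. They are mir-80 (bases 8865270 to 8865367), a member of the mir-58 family that is related to the fly microRNA bantam, mir-238 (8867328 to 8867425) and mir-90 (8873987 to 8874084). III-3 holds mir-229, mir-64, mir-65 and mir-66, which form a cluster on the plus strand between bases 2172452 and 2173206. III-4 holds mir-76, mir-4936 and mir-4927. The table does not say which reads within a segment came from these genes.

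**Figure D1:**
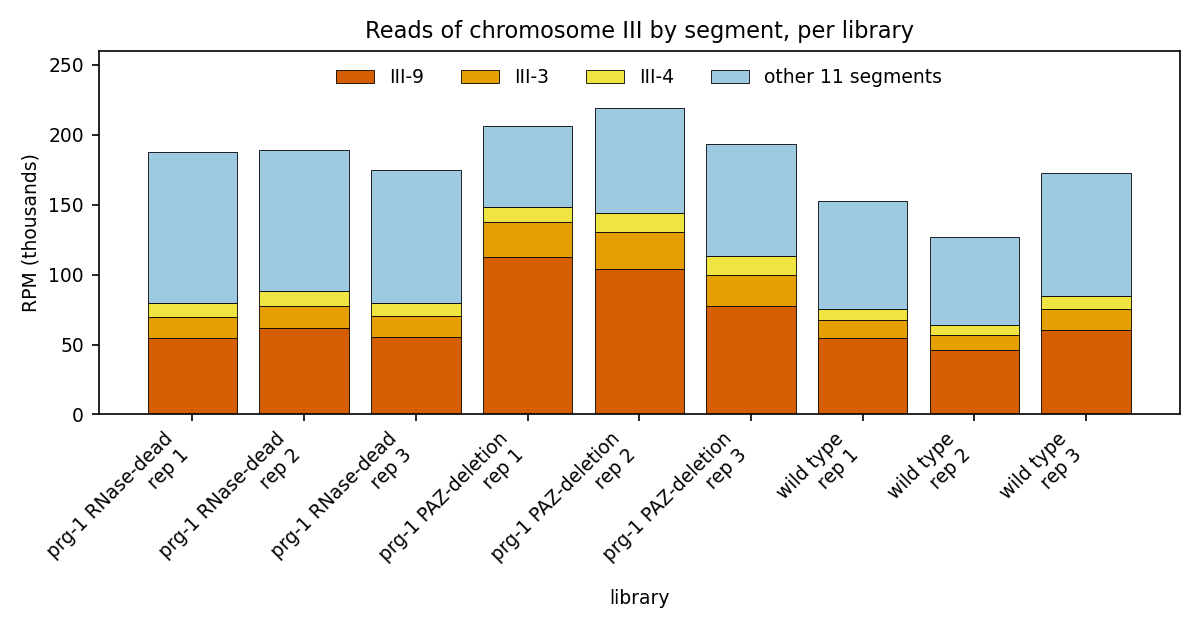
Stacked bars of RPM for each of the 9 libraries, divided into III-9, III-3, III-4 and the other 11 segments of chromosome III. The full height is the chromosome total, 193448 to 219136 RPM in PAZ-deletion, above every RNase-dead and wild type library, and the III-9 part is tallest in the 3 PAZ-deletion libraries, while the part of the other 11 segments is tallest in the RNase-dead libraries.

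Chromosome III took a larger part of the small RNA reads in both mutants than in wild type. It had 187881, 188783 and 174586 RPM in the RNase-dead libraries, 206262, 219136 and 193448 in the PAZ-deletion libraries, and 152755, 126931 and 172761 in the wild type libraries. As a share of genome-mapped reads the means were 18.4 ± 0.795% in RNase-dead, 20.6 ± 1.28% in PAZ-deletion and 15.1 ± 2.30% in wild type (SD, n = 3). The 3 genotypes did not overlap, and an F statistic on log2 RPM, tested by exact permutation over all assignments of the 9 libraries, separated them (p = 0.0036, the smallest possible, and 0.0125 after Benjamini-Hochberg adjustment over 7 chromosomes). Among the other chromosomes the adjusted p was 0.0125 for mitochondrial DNA, 0.0417 for chromosome I and 0.055 to 0.0857 for the rest. RNase-dead lay 0.30 ± 0.13 (SE) above wild type on the log2 scale. PAZ-deletion lay 0.46 ± 0.14 above wild type and 0.17 ± 0.06 above RNase-dead. Each pair gave an exact two-sided permutation p of 0.1, the smallest that 3 libraries against 3 can reach. The RNase-dead difference moved with I-16, whose part in it was not tested further. When I-16 was left out of the denominator, the log2 difference between RNase-dead and wild type was 0.17, the groups overlapped and the exact permutation p was 0.2, while that between PAZ-deletion and wild type was 0.37 with no overlap. The difference between RNase-dead and wild type was also 0.18 without wild type replicate 2.

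In PAZ-deletion animals the higher total of the chromosome lay in 3 segments, and most of it in 1. By difference of means, III-9 exceeded wild type by 44333 RPM, which is 79.9% of the chromosome's net difference of 55467 RPM. III-3 was 11786 RPM higher, or 21.2% of that difference, and III-4 was 4310 RPM higher, or 7.77%. These parts exceed the net difference together because 7 of the 14 segments were lower on average, with differences that sum to -7234 RPM. With III-9 left out, the rest of the chromosome stood at 108322 ± 12765 RPM in PAZ-deletion, against 97189 ± 16054 in wild type (SD, n = 3), and the groups overlapped (exact permutation p = 0.5). With III-9 and III-3 left out the means were 83673 ± 13060 RPM in PAZ-deletion, against 84326 ± 13637 in wild type, a log2 difference of -0.01 ± 0.19 (SE, exact permutation p = 0.9, n = 3 each). III-9 and III-3 had the largest rises in RPM in these same libraries, so a smaller difference without them follows from that choice. These p-values are no separate evidence on where the change lies.

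III-9 had 112670, 103918 and 77292 RPM in the PAZ-deletion libraries, against 54428, 46334 and 60118 in wild type. Every PAZ-deletion library lay above every wild type library, and the spread among the PAZ-deletion libraries was wide. Counts of all 104 segments were fitted together with edgeR's quasi-likelihood test, with a Benjamini-Hochberg false discovery rate (FDR) over all of them and a threshold of 0.05. III-9 rose by 0.87 ± 0.30 on the log2 scale (SE, edgeR FDR 0.0105). It was 0.76 without PAZ-deletion replicate 1 (edgeR FDR 0.0528) and 0.82 without PAZ-deletion replicate 2 (edgeR FDR 0.0578), so the call rested on each of these libraries although the size of the change moved little.

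III-3, with the mir-229 to mir-66 cluster, had 24678, 26841 and 22427 RPM in PAZ-deletion, against 13164, 10307 and 15118 in wild type. The groups were well apart, and the log2 fold change was 0.94 ± 0.19 (SE, edgeR FDR 9.31e-06), which was the second largest increase among the 104 segments. III-4 had 10927, 13202 and 13666 RPM in PAZ-deletion, against 7834, 7255 and 9778 in wild type. It too did not overlap, and rose by 0.60 ± 0.17 on the log2 scale (SE, edgeR FDR 0.00132). Both calls held under all 16 other settings tried, which included leaving out each of the 9 libraries.

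One segment fell. III-12, bases 11000001 to 12000000, had 2568, 3124 and 3289 RPM in PAZ-deletion, against 5142, 4041 and 5554 in wild type. All PAZ-deletion libraries were below all wild type libraries, a log2 change of -0.71 ± 0.17 (SE, edgeR FDR 0.000326), and the call held under all 16 other settings. III-12 was the only segment of chromosome III with no annotated piRNA gene. It holds 4 microRNA genes, mir-272, mir-1832a, mir-86 and mir-8211. The 6 segments of chromosome III with 3 or more microRNA genes included all 3 that rose and the 1 that fell, with a median log2 fold change of 0.34, while the 4 with no microRNA gene included 0 called either way, with a median of -0.18. The 4 with 1 or 2 microRNA genes also included 0 called either way, with a median of -0.05. Over the whole genome, the segments with 3 or more microRNA genes included 10 that rose and 14 that fell in PAZ-deletion, of 42, with a median log2 fold change of -0.13, while those with none included 2 that rose and 5 that fell, of 21, with a median of -0.15. Those with 1 or 2 included 6 that rose and 10 that fell, of 41, with a median of -0.10. A link between microRNA genes and the calls was not tested.

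By count, 3 of the 14 segments rose in PAZ-deletion, where 17.3% of all 104 segments did, and 1 fell, where 27.9% of all did (45.2% in either direction). The median log2 fold change over the 14 was -0.05, beside -0.13 over all 104 segments. The share that rose was near that of the genome, and the share that fell was lower than that of the genome, a difference that was not tested. The 10 segments that were not called had log2 fold changes from -0.37 for III-5 to 0.17 for III-10. III-5 had 5484, 7034 and 7322 RPM in PAZ-deletion, against 8921, 6997 and 9707 in wild type, and overlapped (edgeR FDR 0.0543). III-14, at the right end, had 6755, 8800 and 9493 RPM in PAZ-deletion, against 8434, 6769 and 9721 in wild type, with a log2 fold change of 0.01. Scaling shifted these counts. With TMM factors, which moved the median of all 104 segments from -0.13 to 0.0028, 5 segments rose, beside 31.7% of all 104, and 2 fell, beside 29.8%. With DESeq2 median-ratio factors 6 rose, beside 32.7%, and 2 fell, beside 34.6%.

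**Figure D2:**
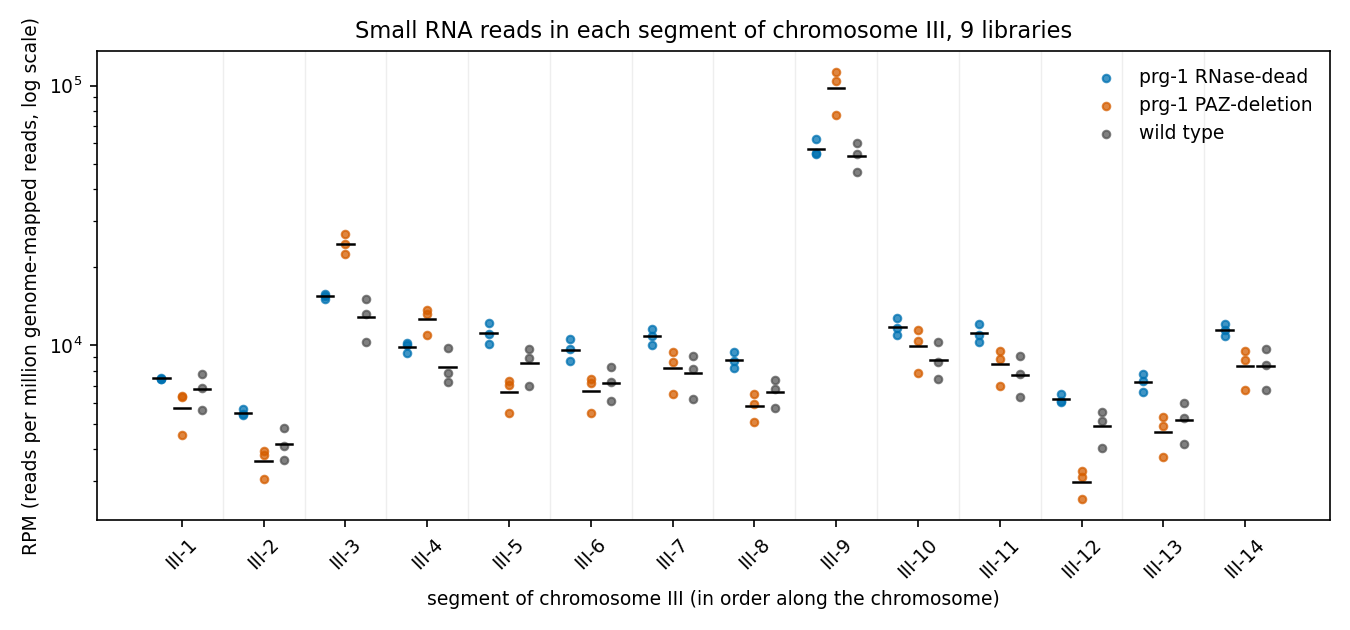
RPM on a log scale for each segment of chromosome III, with 1 point per library, coloured by genotype, and a black bar at each mean. The PAZ-deletion points stand above both other genotypes in III-3, III-4 and III-9 and below both in III-12, and the RNase-dead points stand slightly above wild type across most of the chromosome.

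Set against the same 3 wild type libraries, the difference in RNase-dead animals was smaller and spread along the chromosome. All 14 segments had a higher mean than in wild type, by 693 RPM in III-1 up to 3586 RPM in III-9, and no segment gave more than 10.9% of the chromosome's difference of 32934 RPM. This rested in part on wild type replicate 2. Without it, a check added after the data were seen, the differences ran from -59.9 RPM in III-9 and 132 RPM in III-1 to 2694 RPM in III-11. With TMM or DESeq2 median-ratio factors III-1, III-3, III-4 and III-9 were below wild type, by edgeR with TMM at log2 fold changes of -0.14, -0.013, -0.033 and -0.19, none of them called. In relative terms III-9 had the smallest change of the 14. It had 54431, 62146 and 55063 RPM in RNase-dead, against 54428, 46334 and 60118 in wild type, and the groups overlapped. The log2 change was 0.09 ± 0.29 (SE, edgeR FDR 0.782). Without III-9, the remaining 13 segments summed to 126537 ± 6964 RPM in RNase-dead libraries and to 97189 ± 16054 in wild type ones (SD, n = 3), without overlap (exact permutation p = 0.1, the smallest possible).

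Of the 14 segments, 4 rose in RNase-dead, beside 11.5% of all 104, and 0 fell, beside 3.85% of all, by edgeR (15.4% of all in either direction). Before adjustment, 10 were higher and 0 were lower at p under 0.05 by edgeR, beside 37.5% and 4.81% of all. By DESeq2 scaled to genome-mapped reads, 9 rose, beside 34.6% of all, and 0 fell, beside 3.85%. The 4 were III-7, III-11, III-13 and III-14. III-11 had the largest log2 fold change, 0.53 ± 0.16 (SE, edgeR FDR 0.0348), with 12138, 10981 and 10274 RPM in RNase-dead and 7746, 6321 and 9127 in wild type. III-14 had 12062, 11517 and 10878 RPM in RNase-dead, against 8434, 6769 and 9721 in wild type (log2 fold change 0.47 ± 0.16 SE, edgeR FDR 0.0414). Both sets of libraries were apart, by margins smaller than the range of the wild type libraries. The median log2 fold change was 0.40 on chromosome III and 0.29 over all 104 segments. TMM factors brought the median of all segments to 0.02. They centre the typical segment by design, so whether the 0.29 came from scaling was not tested. These calls depended on the setting. None of the 4 was called with I-16 left out of the denominator (7 higher and 0 lower before adjustment, at p under 0.05; 0% of all 104 called higher and 4.81% lower), with TMM factors (7 and 0; 0% of all 104 called by edgeR), or without RNase-dead replicate 1, 2 or 3, PAZ-deletion replicate 2 or wild type replicate 1 or 2. In these settings III-11 stayed at 0.40 to 0.58 on the log2 scale without single libraries and at 0.41 without I-16, and was at 0.25 with TMM. With DESeq2 median-ratio factors all 4 were called, III-11 at 0.25 (DESeq2 FDR 0.0024), beside 6.73% of all segments higher and 8.65% lower. Without wild type replicate 3, 10 were called, and without PAZ-deletion replicate 1, 9 were called. For these counts, and for the unadjusted ones without I-16 or with TMM, the share over all 104 segments is not given here. They compare settings, and do not set chromosome III apart from the genome. Removing a PAZ-deletion library changed the count because the spread was estimated over all 9 libraries.

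III-1, bases 1 to 1000000, had 7519, 7430 and 7446 RPM in RNase-dead, against 6892, 5650 and 7775 in wild type, and showed the smallest absolute difference. Its level in PAZ-deletion was 4531, 6394 and 6331 RPM, which overlapped wild type. It holds 175 protein-coding genes and no microRNA gene.

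**Figure D3:**
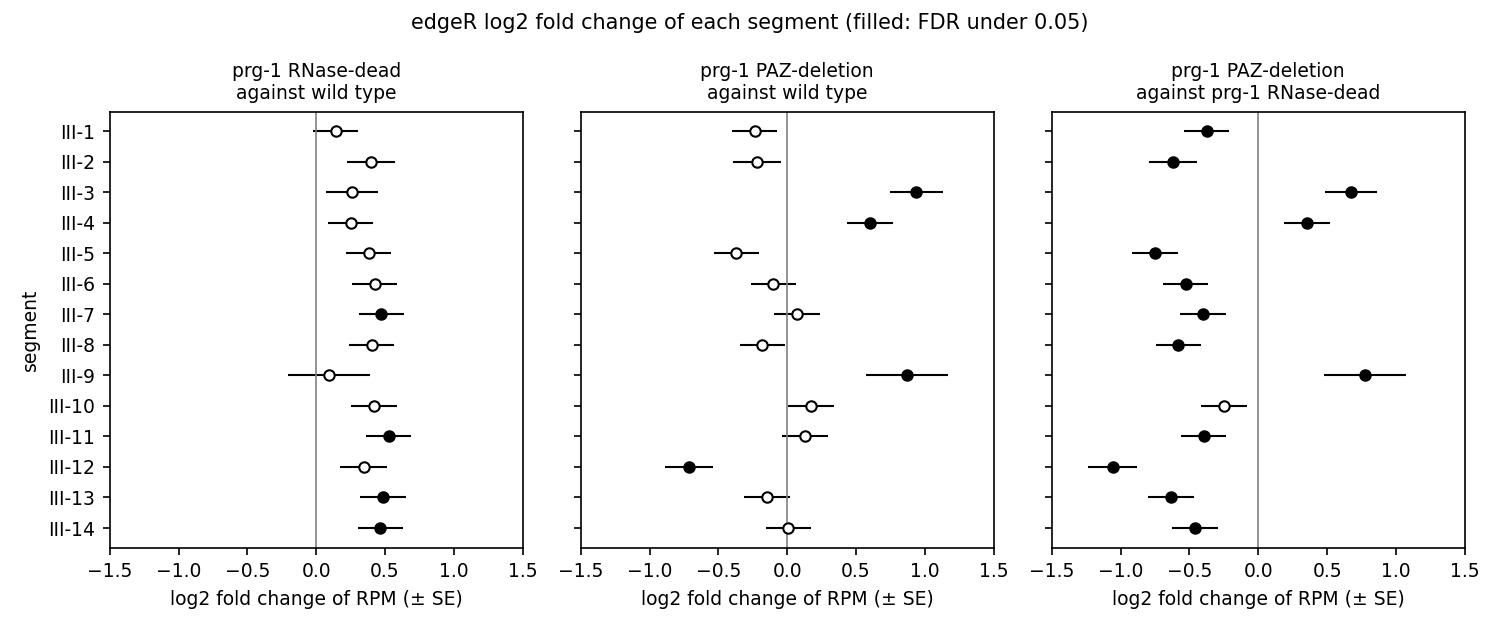
Log2 fold change of RPM for each segment of chromosome III in 3 comparisons, with SE bars from edgeR and filled points at FDR under 0.05. RNase-dead against wild type runs from 0.09 to 0.53 with this scaling (from -0.19 to 0.25 with TMM factors), while in both PAZ-deletion comparisons III-3, III-4 and III-9 lie to the right and III-12 lies farthest to the left.

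The mutants were then compared directly. In PAZ-deletion, 3 of the 14 segments were above RNase-dead, beside 13.5% of all 104, and 10 were below it, beside 53.8% of all (67.3% in either direction). The median log2 fold change was -0.43 on chromosome III and -0.40 over all segments. The higher ones were again III-9, III-3 and III-4, at log2 fold changes of 0.78 ± 0.30, 0.68 ± 0.19 and 0.35 ± 0.17 (SE, edgeR FDR 0.0157, 0.00094 and 0.0490). The call of III-4 was lost with the replicate block and without any 1 of RNase-dead replicates 1 to 3, PAZ-deletion replicates 2 and 3 and wild type replicate 1. That of III-9 was lost without RNase-dead replicate 1 or 3 and without PAZ-deletion replicate 1 or 2 (log2 fold change 0.66 to 0.75, edgeR FDR 0.0653 to 0.0728). III-12 fell most, at 2568, 3124 and 3289 RPM in PAZ-deletion and 6530, 6086 and 6100 in RNase-dead (log2 fold change -1.06 ± 0.18 SE, edgeR FDR 3.36e-08). III-5 had the largest difference in RPM among the lower ones, -4518, at 5484, 7034 and 7322 RPM in PAZ-deletion and 12248, 11028 and 10117 in RNase-dead (log2 fold change -0.75 ± 0.16 SE, edgeR FDR 2.66e-05). In both segments every PAZ-deletion library lay below every RNase-dead library. Only III-10 was not called, at -0.25 ± 0.17 (SE, edgeR FDR 0.173). With TMM factors or with DESeq2 median-ratio factors, which brought the median of all segments from -0.40 to near 0, 3 segments were higher and 5 lower. The shares over all 104 segments were then 31.7% higher and 33.7% lower with TMM, and 35.6% and 34.6% with DESeq2. Under these factors 3 segments changed sign and none of them was called. With TMM, III-1 was at 0.021, against -0.38 in the reported fit, III-10 at 0.15, against -0.25, and III-11 at 0.0061, against -0.40. Without RNase-dead replicate 1, 7 segments were called in all, and without PAZ-deletion replicate 1, 8 were. The share over all 104 segments is not given for these fits, so their counts compare settings only.

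Scaled to genome-mapped reads, the chromosome total between the mutants was a sum of higher and lower segments. With this scaling the median log2 fold change over all 104 segments was -0.40, so the lower part was not particular to chromosome III. With TMM factors 5 of the 14 segments were called lower, beside 33.7% of all 104, which is near the same share. PAZ-deletion was 22532 RPM above RNase-dead in total, the sum of 52705 RPM in III-9, III-3 and III-4 and -30173 RPM in the other 11 segments. Those 11 segments stood at 71075 ± 11595 RPM in PAZ-deletion, 101248 ± 6811 in RNase-dead libraries and 76037 ± 12407 in wild type ones (SD, n = 3). PAZ-deletion and wild type overlapped (exact permutation p = 0.6, n = 3 each), while PAZ-deletion and RNase-dead did not (exact permutation p = 0.1, the smallest possible). These 11 are the segments with a lower mean in PAZ-deletion than in RNase-dead in the same libraries. The p between the mutants is thus no separate evidence for their lower level.

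Shares within chromosome III do not depend on the genome-wide denominator, and so not on I-16, but they sum to 100% in each library, so a rise in 1 segment lowers the others. III-9 held 28.97, 32.92 and 31.54% of the chromosome's reads in the RNase-dead libraries, 54.62, 47.42 and 39.95% in the PAZ-deletion ones, and 35.63, 36.50 and 34.80% in wild type. The 3 genotypes were apart, with wild type between the mutants and a far tighter spread there than in PAZ-deletion. III-9, III-3 and III-4 together made up 44.9 ± 2.27% in RNase-dead, 65.4 ± 6.64% in PAZ-deletion and 49.6 ± 0.610% in wild type (SD, n = 3). Each pair was without overlap (exact permutation p = 0.1, the smallest possible). These are the 3 segments that rose in PAZ-deletion in the same libraries, so this p is no separate evidence for their rise.

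**Figure D4:**
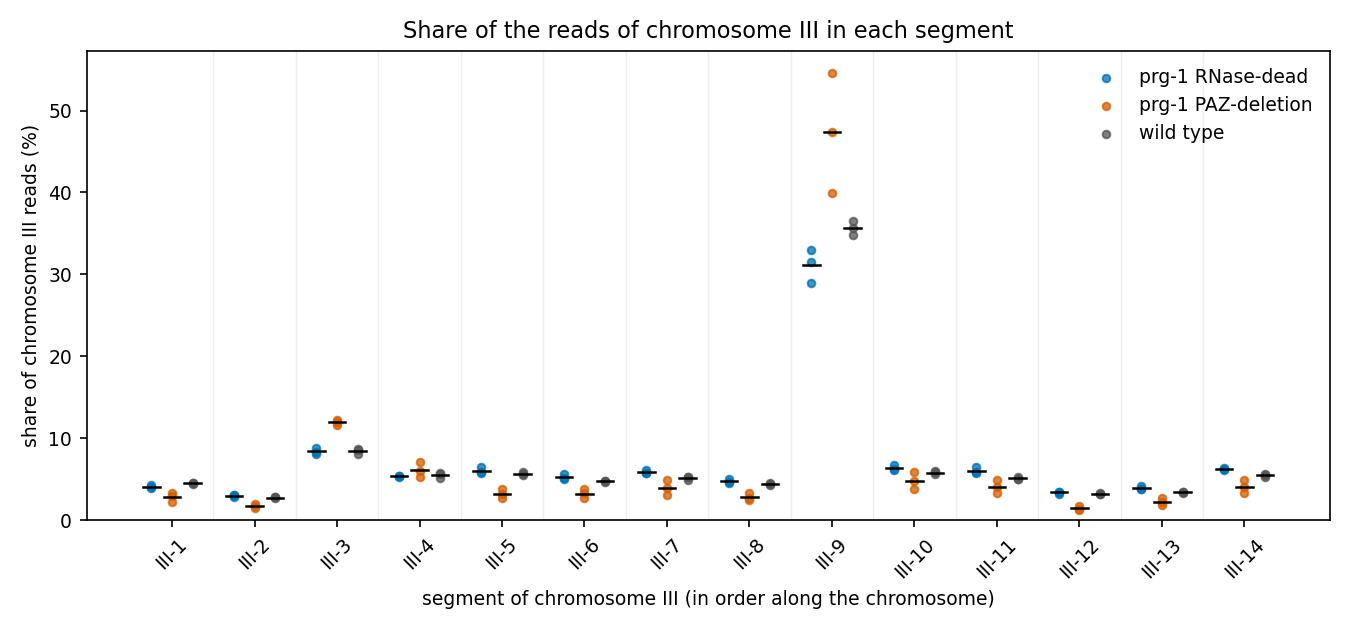
Share of the reads of chromosome III, in percent, for each segment, with 1 point per library, coloured by genotype, and a black bar at each mean. III-9 averages 31.1% in RNase-dead, 47.3% in PAZ-deletion and 35.6% in wild type, with PAZ-deletion libraries from 39.95 to 54.62%, and most other segments have their lowest share in PAZ-deletion.

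These shares were tested in a second edgeR fit over the 103 segments of the 6 nuclear chromosomes, with the reads of a segment's own chromosome as the library total. For PAZ-deletion against wild type, 1 of the 14 segments rose in share, beside 16.5% of the 103, and 8 fell, beside 36.9% (53.4% in either direction). The one that rose was III-3, at 11.96, 12.25 and 11.59% in PAZ-deletion and 8.62, 8.12 and 8.75% in wild type (log2 fold change 0.49 ± 0.13 SE, edgeR FDR 0.00547). III-9, though without overlap, was not called, with 0.41 ± 0.17 on the log2 scale (SE, edgeR FDR 0.0560). DESeq2 with chromosome totals called it (FDR 0.00882), and so did edgeR without PAZ-deletion replicate 3 (edgeR FDR 0.0196). III-12 fell most in share, at 1.25, 1.43 and 1.70% in PAZ-deletion and 3.37, 3.18 and 3.21% in wild type (log2 fold change -1.16 ± 0.13 SE, edgeR FDR 1.32e-05). The other segments that fell were III-1, III-2, III-5, III-6, III-8, III-13 and III-14, at log2 fold changes from -0.43 to -0.81.

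Because III-9 is so large, the shares were also set against the median segment of the chromosome in place of its total. Then 6 segments rose in PAZ-deletion against wild type, beside 29.1% of the 103, and 5 fell, beside 31.1%, in place of 1 and 8. III-3 was at 1.03, III-9 at 0.97 and III-4 at 0.66 on the log2 scale by this measure, III-12 at -0.66 and III-5 at -0.32, all called by edgeR (FDR 0.000349, 0.0352, 6.73e-05, 4.65e-05 and 0.000397). III-14, called lower by the first measure, was at 0.06. III-7, III-10 and III-11 turned from -0.37, -0.27 and -0.31 by share of the total to 0.12, 0.22 and 0.18, and were called higher (edgeR FDR 0.0262, 0.00228 and 0.00311). The falls of III-6 and III-8 were no longer called. Among the 13 segments other than III-9, III-12 held 2.76 ± 0.0620% in PAZ-deletion and 5.06 ± 0.154% in wild type (SD, n = 3). III-4 held 11.6 ± 0.158% in PAZ-deletion and 8.55 ± 0.529% in wild type, and III-3 held 23.0 ± 3.54% in PAZ-deletion and 13.2 ± 0.356% in wild type. None of these overlapped (exact permutation p = 0.1 each, the smallest possible).

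For RNase-dead against wild type, edgeR called 0 of the 14 segments in share, beside 3.88% of the 103 (0.971% higher and 2.91% lower). Before adjustment, 0 were higher and 0 lower at p under 0.05, and by DESeq2 with chromosome totals 0 were called, beside 26.2% of the 103 higher and 3.88% lower. Log2 fold changes ran from -0.19 for III-9 to 0.24 for III-11. The largest change in percentage points was in III-9, which averaged 31.1 ± 2.00% in RNase-dead libraries and 35.6 ± 0.853% in wild type ones (SD, n = 3, exact permutation p = 0.1), and did not overlap. For PAZ-deletion against RNase-dead, 2 segments rose in share, beside 10.7% of the 103, and 11 fell, beside 53.4% (64.1% in either direction). Those that rose were III-9, at a log2 fold change of 0.60 ± 0.17, and III-3, at 0.50 ± 0.13 (SE, edgeR FDR 0.0076 and 0.00405). III-4 was not called (log2 fold change 0.19 ± 0.13 SE, edgeR FDR 0.219). Against the median segment, 4 rose, beside 32% of the 103, and 3 fell, beside 31.1%. One of the 4 was III-10, which was called lower in share of the total (-0.41, edgeR FDR 0.0334) and higher against the median segment (0.23, edgeR FDR 0.00149). III-1, III-7, III-11 and III-14 also turned positive by that measure, to 0.10, 0.081, 0.094 and 0.026, and were not called.

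By region, the right arm and the centre without III-9 both had their lowest share in PAZ-deletion, while the whole centre had its highest mean share there. The right arm, III-11 to III-14, held 19.6 ± 0.783% of the chromosome's reads in RNase-dead, 11.9 ± 2.28% in PAZ-deletion and 17.3 ± 0.418% in wild type (SD, n = 3). No pair of genotypes overlapped (exact permutation p = 0.1 each, the smallest possible). The left arm, III-1 to III-4, held 20.8 ± 0.614% in RNase-dead, 22.6 ± 1.53% in PAZ-deletion and 21.3 ± 0.399% in wild type, and every pair overlapped (exact permutation p = 0.2 to 0.4, n = 3 each). In RPM, the right arm averaged 24452 ± 3939 in PAZ-deletion and 26107 ± 4564 in wild type, with overlap (SD, n = 3, exact permutation p = 0.6). Among its 4 segments III-12 alone fell in RPM against wild type. The central segments other than III-9, which are III-5 to III-8 and III-10, also overlapped in RPM, at 37275 ± 6179 RPM in PAZ-deletion, against 38975 ± 6174 in wild type (SD, n = 3, exact permutation p = 0.6). These central segments held 28.4 ± 1.49% of the chromosome's reads in RNase-dead, 18.2 ± 3.56% in PAZ-deletion and 25.8 ± 0.235% in wild type (SD, n = 3). No pair of genotypes overlapped in this share (exact permutation p = 0.1 each, the smallest possible). With III-9 kept, the centre held 59.5 ± 0.798% in RNase-dead, 65.5 ± 3.78% in PAZ-deletion and 61.5 ± 0.710% in wild type (SD, n = 3). PAZ-deletion then overlapped wild type (exact permutation p = 0.2) but not RNase-dead (exact permutation p = 0.1). The direction for the centre thus depended on III-9, while III-3 and III-4 were kept in the left arm. In RPM the left arm did not overlap, at 46595 ± 3514 in PAZ-deletion, against 32107 ± 5342 in wild type (SD, n = 3, exact permutation p = 0.1). That rise was not shared by the whole arm. By difference of means III-3 was at 11786 RPM and III-4 at 4310, but III-1 at -1020 and III-2 at -587. In mean share too, III-3 and III-4 were higher than in wild type, and III-1 and III-2 lower.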

How the data were processed

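Small RNA was isolated with a mirVana kit, and acid pyrophosphatase made 5′ triphosphate RNAs clonable before TruSeq library preparation, per the labels' protocols. The deposited values are the authors' raw read counts per genome segment and library, per the file headers. The submitters' processing notes name FastQC 0.12.0 and cutadapt 3.7. Neither an aligner, a rule for reads with several matches nor a build is given in the sources used here, so reads of near-identical genes in different segments may be shared. The other deposited tables, on piRNAs, were not used.

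Segments carry lengths only. Their order and the 7 short last segments gave the chromosomes, in which every gene of Ensembl release 115 (WBcel235) ends. On chromosome III the last gene ends at base 13783459 of 13783801. A gene was counted in the segment of its midpoint. Libraries of a group differed beyond sampling noise (chi-square per degree of freedom at least 140).

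All 9 libraries entered 1 edgeR 4.0.16 fit (glmQLFit and glmQLFTest, R 4.3.3) of segments with at least 10 reads, which all 104 had. Genome-mapped reads were the library sizes, or chromosome totals the offsets for shares. The SE is the absolute log2 fold change over the square root of F. Sums and single shares were compared by exact two-sided permutation of mean log2 values, unadjusted for their number. On simulated counts for 104 segments, edgeR recovered 100% of 2-fold changes in each comparison. Of 1.5-fold changes it recovered 90% for RNase-dead against wild type, 100% in PAZ-deletion against wild type and 80% between the mutants. Of the calls, 3.23% were false for PAZ-deletion against wild type and 0% in the other comparisons. Each comparison had 20 segments changed 2-fold and 10 changed 1.5-fold, drawn without repeats. The denominator was not shifted, so this says nothing on how calls depend on scaling. DESeq2 1.42.0 was an alternative.

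Segments are given by library where they are among the 3 of highest mean RPM, have the largest or smallest RPM difference in a comparison, are called in share with an absolute log2 fold change of at least 1, or are III-14. III-11 was added after its values were seen, as were the sums with and without III-9, III-3 or III-4. Members, regions and tests were chosen with earlier results of these data known. Intervals cover counting error only, as the labels name no molecular identifiers.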

Additional observations from a re-analysis of the deposited data

Results flagged for a closer look

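All libraries of one mutant stood above every wild type library and all of the other below, with the direct test between mutants called by edgeR, for 1 segment in RPM and 8 in share of the chromosome. The rule was applied to chromosome III alone, so how many segments of the whole genome meet it was not counted. Between the mutants, edgeR called 53.8% of all 104 segments lower in RPM and 53.4% of the 103 lower in share. In RPM the segment was III-12, whose log2 fold change was 0.34 for RNase-dead against wild type, -0.71 for PAZ-deletion against wild type and -1.06 between the mutants (edgeR FDR 3.36e-08). Its rise in RNase-dead was not called (edgeR FDR 0.111). Over the 16 other settings that rise was as low as 0.064, and 1 of them called it. The median over all 104 segments in RNase-dead against wild type was 0.29. In share, III-9 stood alone in its direction, lower in RNase-dead (-0.19) and higher in PAZ-deletion (0.41), with 0.60 between the mutants (edgeR FDR 0.0076). The other 7 were higher in RNase-dead and lower in PAZ-deletion than in wild type. Between the mutants their log2 fold changes of share were -0.78 for III-2, -0.69 for III-6, -0.56 for III-7, -0.74 for III-8, -0.56 for III-11, -0.80 for III-13 and -0.62 for III-14. In share, only III-2, III-6, III-8, III-13 and III-14 among these 7 differed from wild type by edgeR in PAZ-deletion, and none did in RNase-dead. The shares sum to 100%, so these 7 are not independent of III-9.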

How the results depend on the processing

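The direction of the chromosome III total was the same under every other denominator, without III-14 and without any 1 library, but 3 libraries against 3 cannot pass 0.05, so this is no test of stability. Without III-9 the log2 difference between PAZ-deletion and RNase-dead was -0.23, and without III-9 and III-3 it was -0.42, while that between PAZ-deletion and wild type was -0.011. The exact F test over genotypes then gave p = 0.0571 and 0.1. III-9 and III-3 had the largest rises in PAZ-deletion in the same libraries, so these p-values are no separate evidence. Of the calls in RPM, those for RNase-dead against wild type depended most on the setting, with 4 in the reported fit, 8 in a fit of these 2 groups, 9 by DESeq2 with genome-mapped size factors, 4 by DESeq2 with median-ratio factors, 0 with TMM factors, 0 without I-16 in the denominator, 0 with the replicate block (9 higher at an unadjusted p under 0.05), and 0 to 10 with 1 library left out. For PAZ-deletion against wild type the 4 calls became 7 with TMM and 8 with DESeq2 median-ratio factors, and were 3 to 6 with 1 library left out. For PAZ-deletion against RNase-dead the 13 became 8 with either scaling, and 7 to 13 with 1 library left out. Shares over all segments are not set beside the counts in this paragraph, which compare settings and not chromosome III with the genome. Against the median segment, calls in share were 1 in place of 0 for RNase-dead against wild type (III-1, lower) and 7 in place of 13 for PAZ-deletion against RNase-dead. That setting also turned the share of III-14 to 0.058 against wild type and 0.026 against RNase-dead in PAZ-deletion, and of III-1 to 0.10 against RNase-dead. It turned III-7, III-10 and III-11 to 0.12, 0.22 and 0.18 against wild type, all called, and to 0.081, 0.23 and 0.094 against RNase-dead, where III-10 went from called lower to called higher. In RPM, III-1 between the mutants became 0.021 with TMM and 0.018 with DESeq2 median-ratio factors, III-11, called lower in the reported fit, 0.0061 and 0.0010, and III-10, not called, 0.15 and 0.14. The cause of these turns was not tested beyond the change of scale. Leaving out the filter on low counts changed nothing, since all segments passed. Same-numbered libraries did not deviate together (r = -0.56 to 0.14 over 104 segments), so the numbers were not taken as pairs, and the block changed no other count by over 1.5 times. The widest half-width of the 95% counting interval exceeded the SD of the share between libraries in 3 of 42 combinations of segment and genotype.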
